A study of Mus musculus with 8 samples.

Results

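In the hearts of TAZG197V mice, 43 of 55471 counted genes stood so low that the lowest wild-type (WT) heart was at least 2 times above the highest mutant heart. They were chosen by the values of the same 8 hearts, so the difference between genotypes in these genes is the selection itself and is given as a description without a test. Levels are CPM, the count of a gene divided by the total of all gene counts in its library and multiplied by 1000000. A gene entered when its lowest WT level was at least 3 CPM and at least 2 times its highest TAZG197V level. Of the 10655 genes with a lowest WT level of at least 3 CPM, 48 met these values (0.45%), and 5 of them were left out by name, namely Sbk2, Clcn1, Gm34302, Kcnj3 and Kcnv2 (the rule also names Ano5, which did not meet the values). The same rule turned around, with every TAZG197V heart at least 2 times above every WT heart, was met by 160 of 10729 genes (1.49%).

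RNA was sequenced from a piece of heart of 4 WT and 4 TAZG197V mice. TAZG197V mice carry a missense mutation of the X-linked gene Taz that was introduced with CRISPR/Cas9 in C57BL/6N zygotes, and founders were crossed to C57BL6/J. The study states that hemizygous mutant males were used and that the mice were 14 weeks old, and WT mice carry the intact gene. The mutation is present in all cells of the body, not in heart muscle alone. Taz encodes Tafazzin, a mitochondrial acyltransferase that remodels cardiolipin, the signature phospholipid of the inner mitochondrial membrane, and its loss causes Barth syndrome, an inherited disease of heart, skeletal muscle and neutrophils. The mutation is a base change, so the Taz level does not check the labels. It was 61.0, 60.7, 59.1 and 57.6 CPM in the WT hearts and 48.5, 51.5, 47.2 and 45.4 CPM in the TAZG197V hearts.

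Libraries held between 23055689 and 36301031 counts in genes. Summed levels of 5 ventricular muscle genes ran from 44861 to 49916 CPM in WT and from 37755 to 41772 CPM in TAZG197V hearts, so the markers of the labelled tissue were abundant in all 8. WT heart 4 held 42825 CPM of red cell genes, against 286 to 816 CPM in the other WT hearts. Brain genes summed to 77.8 CPM in WT heart 4 and 181.8 CPM in TAZG197V heart 4, against 5.62 to 9.94 CPM in the other 6 hearts. Atrial genes summed to 1129.7 CPM in WT heart 2, against 4.12 to 132.7 CPM elsewhere. In whole tissue, fewer cells of a type and less RNA per cell cannot be told apart.

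**Figure D1:**
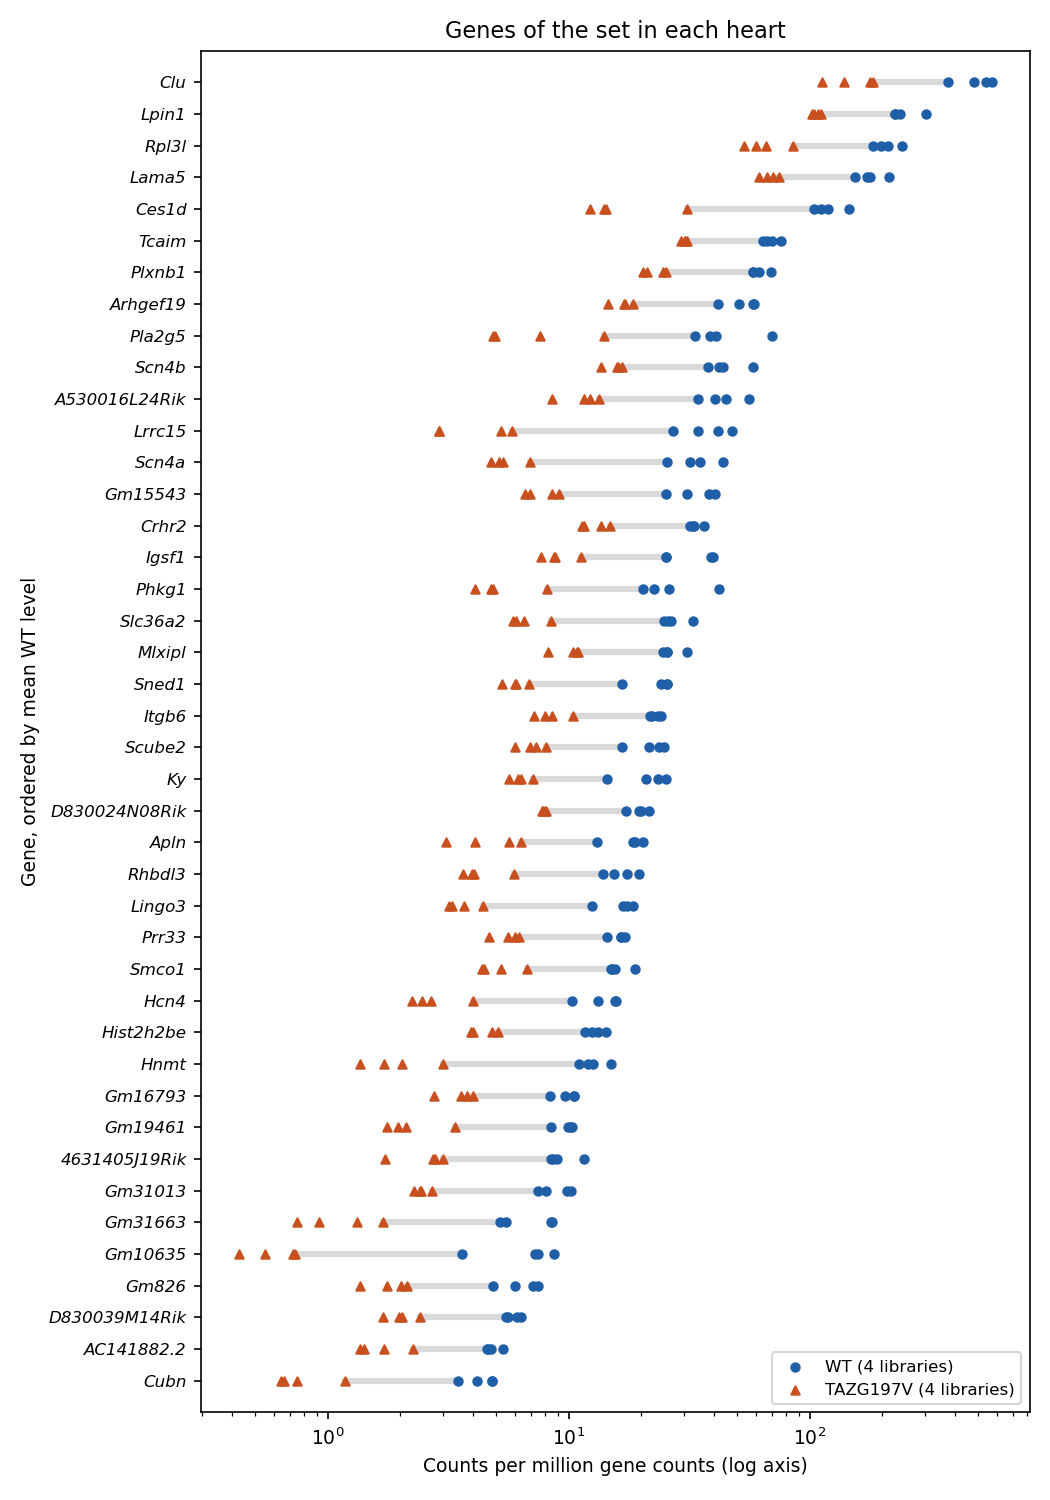
Level of all but 1 of the 43 genes in every heart, in CPM on a log axis, with circles for the 4 WT hearts and triangles for the 4 TAZG197V hearts. Genes are ordered by mean WT level, from Clu at 492 ± 86.9 CPM (SD, n = 4) to Cubn at 4.31 ± 0.640 CPM, and the grey bar joins the highest TAZG197V heart to the lowest WT heart.

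The known roles of the 43 genes differ. The set holds sodium channel subunits and a pacemaker channel of excitable cells, enzymes of glycogen, lipid and histamine metabolism, muscle-specific proteins, matrix and adhesion molecules, secreted ligands and receptors, and a group of long non-coding RNAs. A working heart muscle cell depends on several of these at once, since sodium channels start each beat, glycogen and fatty acids fuel it, and the laminin and integrin network ties the cell to its surroundings. Of the 43 genes, 32 are annotated as protein-coding and 11 are not. The share of genes that are not protein-coding was therefore 25.6%, against 2.50% (266 of 10655) among all genes with a lowest WT level of at least 3 CPM.

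The means of the genotypes differed by 2.29-fold in Tcaim, the smallest value, and by 11.1-fold in Gm10635, with a median of 3.57-fold over the 43 genes. For 15 genes the means differed by more than 4-fold, for 14 genes by 3-fold to 4-fold and for 14 genes by less than 3-fold. The fitted log2 fold change, TAZG197V over WT, had a median of -1.88 over the 43 genes and of -0.013 over all 15084 genes tested. In that fit 15.1% of all genes were called lower and 18.5% were called higher, and all 43 genes were called lower, which follows from how they were chosen. Mean WT levels ran from 4.31 to 492 CPM with a median of 21.7 CPM, close to the median of 23.9 CPM over the 10655 genes. The lowest count of any of the 43 genes in a WT library was 80 and in a TAZG197V library 8. Summed over the 43 genes, the WT hearts held 2217, 2078, 2128 and 2123 CPM. The corresponding sums in the TAZG197V hearts were 692, 619, 610.2 and 744 CPM. The sum thus varied little within a genotype, and the genes made up 0.214% of all counts in WT and 0.0666% in TAZG197V hearts.

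**Figure D2:**
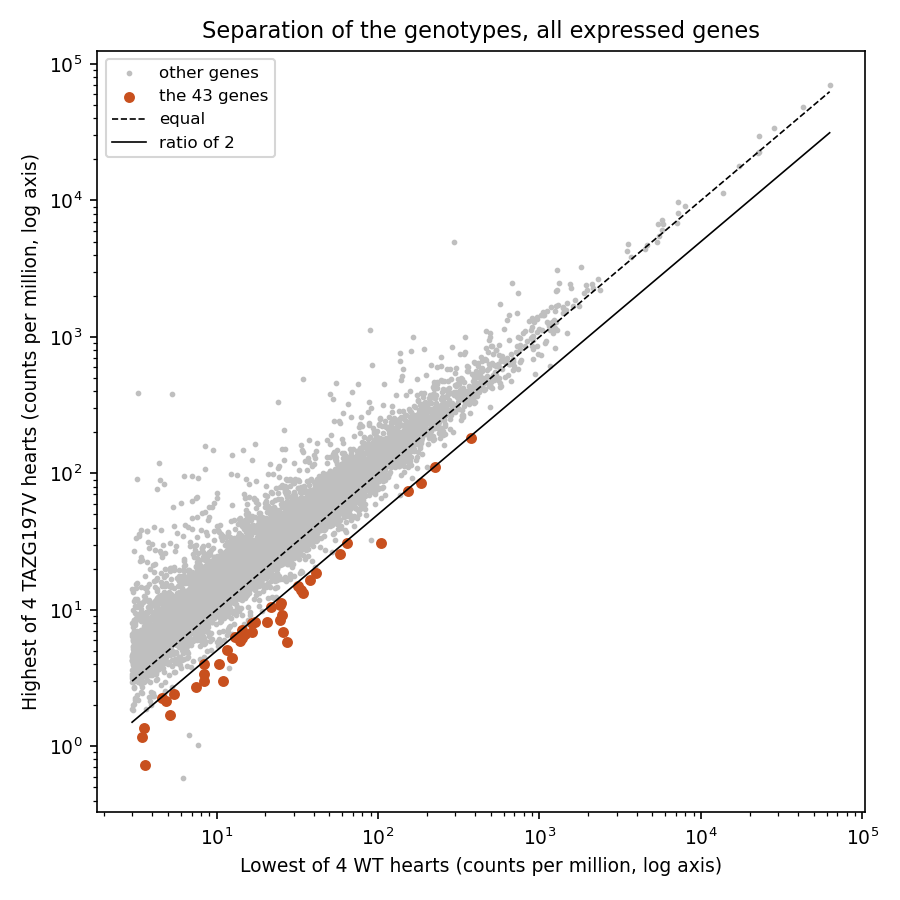
Lowest of the 4 WT hearts against highest of the 4 TAZG197V hearts for the 10655 genes with a lowest WT level of at least 3 CPM, both on log axes. The 43 genes lie on or below the solid line, where the lowest WT value is 2 times the highest TAZG197V value, and the grey points below that line are the 5 genes left out by name.

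The separation differed among the genes. Gm10635, a long intergenic RNA, had the widest gap, with a lowest WT level 4.91 times its highest TAZG197V level. It was followed by Lrrc15 with a ratio of 4.68, Scn4a with 3.73, Hnmt with 3.65, Ces1d with 3.38 and Gm31663 with 3.05. These 6 genes had ratios above 3. At the other end, the 5 genes just inside the threshold of 2 were Lama5 with a ratio of 2.06, Clu with 2.05, Ky with 2.04, Lpin1 with 2.03 and AC141882.2 with 2.02. The 5 genes just outside it were mt-Tm with 1.997, Trabd2b with 1.98, Klhl40 with 1.98, Gm19522 with 1.95 and Fgf2 with 1.95. Lpin1 is the 1 gene of the set that fell outside when libraries were scaled by TMM or by DESeq2 size factors, each of which returned 50 genes, 42 of them shared.

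Sodium channels carry the upstroke of the action potential, and 2 of their subunits were in the set. Scn4a encodes the pore-forming subunit best known from skeletal muscle (ENSMUSG00000001027, chr11:106318592-106353288 on GRCm38, minus strand). Its WT levels were 35.0, 25.7, 31.8 and 43.9 CPM in hearts 1 to 4. The TAZG197V hearts held 6.90, 5.12, 4.74 and 5.35 CPM. All mutant hearts thus lay far below the lowest WT heart, and the fitted log2 fold change was -2.74 ± 0.13 (SE). Scn4b encodes an auxiliary beta subunit that modulates channel gating (chr9:45138395-45154152, plus strand). For it the WT hearts gave 37.7, 41.9, 58.2 and 43.8 CPM and the TAZG197V hearts 16.0, 16.7, 13.6 and 15.9 CPM, a log2 fold change of -1.64 ± 0.14. The mutant values were close together, from 13.6 to 16.7 CPM, and WT heart 3 stood highest. Per kilobase of exon, Scn4b stood at 9.12 CPM in WT hearts and Scn4a at 4.84, and in TAZG197V hearts the levels were 3.11 and 0.785 CPM.

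Other sodium channel genes did not enter the set and could be tested. Scn7a passed as lower (-0.57 ± 0.14, adjusted p = 0.0158), although its groups overlapped and the call was lost without TAZG197V heart 1 or 2. Scn3b passed as higher (0.67 ± 0.16, adjusted p = 0.0112), with overlapping groups and the call lost in 5 of 15 alternatives, namely without surrogate variables, with the lane, with the replicate block, without TAZG197V heart 4 and without both number 4 hearts.

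Hcn4 encodes a hyperpolarization-activated cation channel that carries the pacemaker current of the sinoatrial node and is low in adult working muscle (chr9:58823412-58863175, plus strand). WT hearts held 15.6, 15.7, 10.3 and 13.2 CPM of it and TAZG197V hearts 2.68, 2.45, 2.24 and 3.99 CPM. The highest mutant value came from heart 4 and was still 2.58 times below the lowest WT value, from heart 3, with a log2 fold change of -2.31 ± 0.14. The atrial genes summed to 113.0, 1129.7, 67.3 and 4.12 CPM in WT hearts 1 to 4 and to 29.3 to 132.7 CPM in TAZG197V hearts, and their part in the Hcn4 level was not tested. Hcn2, a channel of the same family that is present in ventricle, moved the other way. It was 20.3, 15.5, 29.1 and 28.3 CPM in WT and 44.1, 36.7, 40.4 and 40.0 CPM in TAZG197V hearts, without overlap, and was called higher at 0.67 ± 0.10 (adjusted p = 0.00157). Of the 8 tested sodium and pacemaker channel genes outside the set, 3 were called lower and 2 higher. This list of genes and the 8 further lists below were put together with results of this contrast known, so their counts are not independent evidence of a direction. Some of the listed genes came close to the rule itself. Ogdhl, Klhl40, C3, Adra1a, Angpt1 and Efnb3, for example, met it with a ratio of 1.5 in place of 2.

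**Figure D3:**
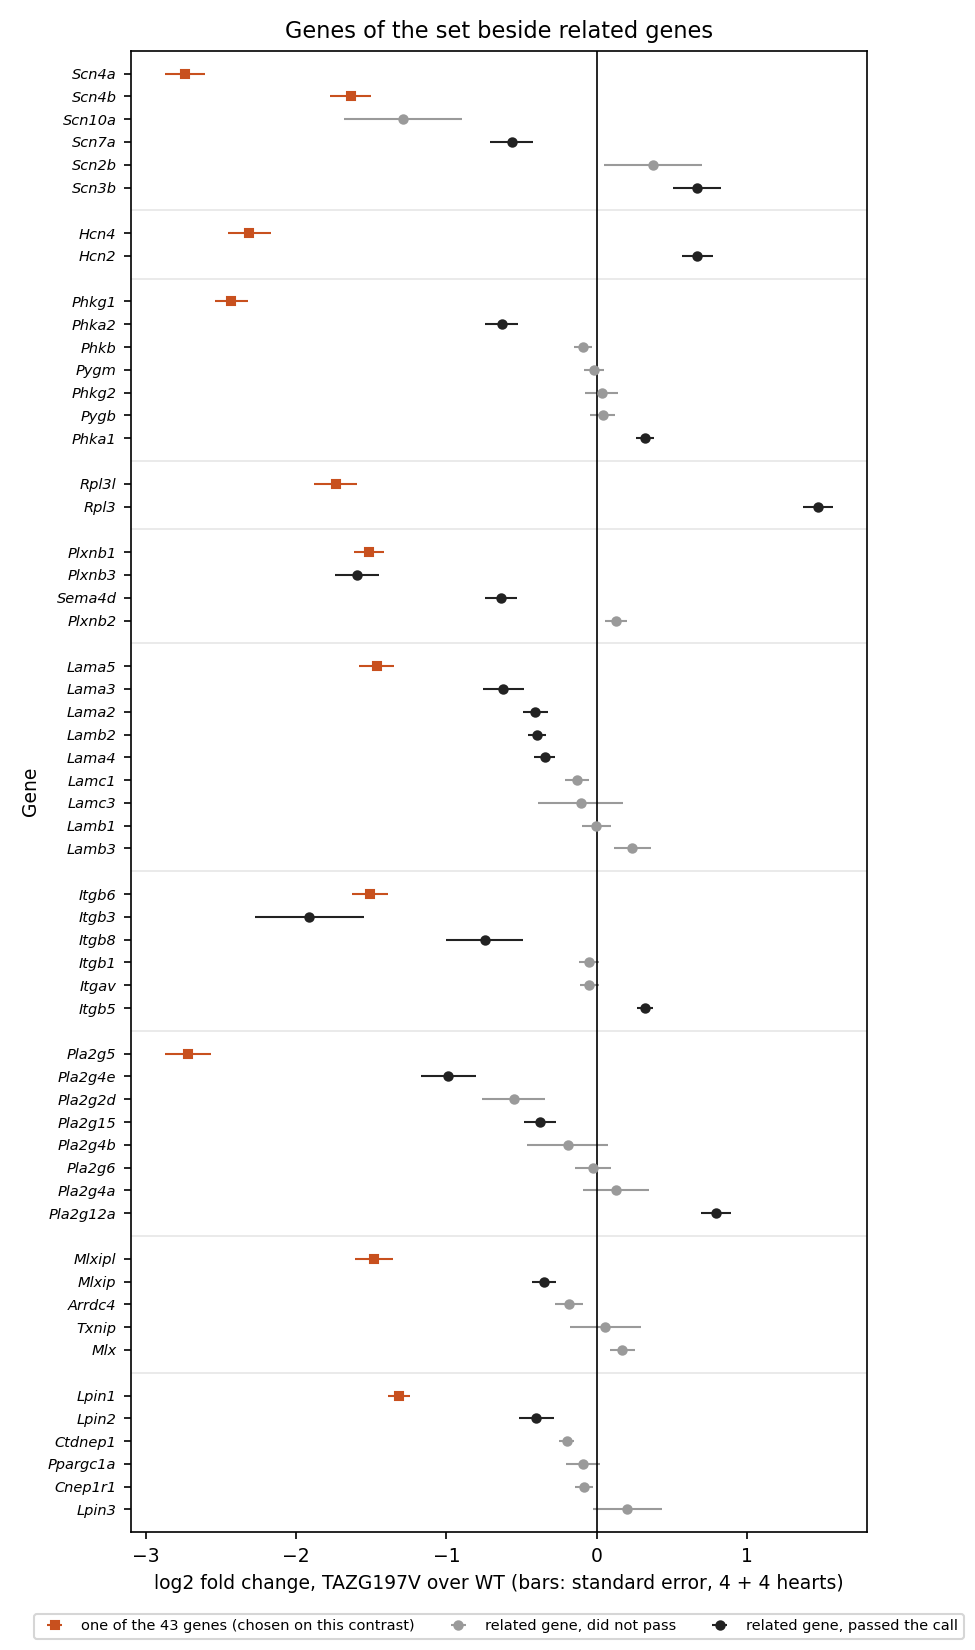
Fitted log2 fold change, TAZG197V over WT, with standard error over 4 WT and 4 TAZG197V hearts. Squares are genes of the set and circles are related genes that did not enter it, dark where called. Related genes spread on both sides of 0, for example Rpl3 at 1.47 ± 0.10 beside Rpl3l at -1.74 ± 0.14.

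The genes related to members were chosen for a known relation, such as a shared family, complex, ligand or partner, after the members were found. Of 71 such genes tested, 21 were called lower and 11 higher, with a median log2 fold change of -0.094. Related genes thus lay on both sides, as the plot of related genes shows, beside 15.1% lower and 18.5% higher over all genes.

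The RNA levels of 1 pair of ribosomal protein genes moved in opposite directions. Rpl3l encodes a striated-muscle form of the ribosomal protein that Rpl3 encodes in most cells (ENSMUSG00000002500, chr17:24727820-24736143, plus strand). In WT hearts Rpl3l stood at 241, 198, 211 and 183 CPM. In TAZG197V hearts it was 65.7, 60.1, 53.5 and 85.2 CPM, with heart 4 the highest, and the log2 fold change was -1.74 ± 0.14. Rpl3 was 8.09, 10.9, 7.35 and 7.98 CPM in WT and 24.5, 27.3, 23.3 and 20.6 CPM in TAZG197V hearts. It was called higher at 1.47 ± 0.10 (adjusted p = 2.9e-05), and every mutant heart lay above every WT heart. Per kilobase of exon, Rpl3l went from 127 to 40.2 CPM while Rpl3 went from 2.702 to 7.54 CPM. The counted level of Rpl3l was thus the higher in both genotypes. Ribosomal protein genes have many near-identical pseudogene copies and the handling of reads with several matches was not stated, so the level of Rpl3 is uncertain. Its order beside Rpl3l is therefore uncertain too.

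Phkg1 encodes the muscle form of the catalytic subunit of phosphorylase kinase, the enzyme that switches on glycogen breakdown (chr5:129863421-129898549, minus strand). Levels were 22.5, 26.1, 20.4 and 42.0 CPM in WT and 4.07, 4.74, 4.87 and 8.09 CPM in TAZG197V hearts, a log2 fold change of -2.43 ± 0.11. Heart 4 was the highest in each genotype, 1.82 times the mean of the other WT hearts and 1.78 times the mean of the other TAZG197V hearts. Of its exon bases, 9.68% also belong to Sumf2 on the other strand, which was not called (-0.16 ± 0.09, adjusted p = 0.208). The remaining subunits split. Phka2, the alpha subunit known from liver, was called lower (-0.63 ± 0.11, adjusted p = 0.00257) and Phka1, the muscle alpha subunit, higher (0.32 ± 0.06, adjusted p = 0.00321). The beta subunit Phkb (-0.09 ± 0.06) and the other catalytic subunit Phkg2 (0.03 ± 0.11) were not called, nor were the phosphorylases Pygm (-0.02 ± 0.07) and Pygb (0.04 ± 0.08), with adjusted p between 0.239 and 0.836. Among the 12 phosphorylase kinase and glycogen genes outside the set, 1 was called lower and 3 higher, led by Gyg, the primer of glycogen synthesis, at 1.62 ± 0.07 (adjusted p = 3.6e-06).

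Mlxipl encodes the carbohydrate response element binding protein, a transcription factor that responds to sugar phosphates. Its level was 25.5, 25.6, 31.1 and 24.7 CPM in WT and 10.8, 8.21, 10.5 and 10.9 CPM in TAZG197V hearts, a change of -1.48 ± 0.13. Values within each genotype were tight, with WT heart 3 a little above the others. Its dimer partner Mlx was not called (0.17 ± 0.08, adjusted p = 0.144), nor was Txnip, a known target of the factor (0.06 ± 0.24, adjusted p = 0.867). Mlxip, the other member of its family, was called lower (-0.35 ± 0.08, adjusted p = 0.00909).

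Enzymes of lipid turnover formed a further group. Lpin1 encodes a phosphatidate phosphatase that makes diacylglycerol and also acts with transcription factors of fatty acid oxidation (ENSMUSG00000020593, chr12:16535669-16610966, minus strand). It was 238, 226, 227 and 303 CPM in WT hearts and 111, 104, 102 and 108 CPM in TAZG197V hearts, with a change of -1.32 ± 0.07. The mutant values varied by only 3.89% (coefficient of variation), and WT heart 4 stood above the other WT hearts. Lpin2 passed as lower at -0.40 ± 0.12 (adjusted p = 0.0261) but lost the call in 10 of 15 alternatives, and Lpin3 was not called (0.20 ± 0.23, adjusted p = 0.511). Ppargc1a, a coactivator that works with Lpin1, was not called either (-0.09 ± 0.11, adjusted p = 0.544).

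Ces1d encodes a carboxylesterase that hydrolyses stored lipid esters (chr8:93166068-93197838, minus strand). WT hearts held 119.7, 111, 105 and 145 CPM and TAZG197V hearts 12.3, 14.1, 14.3 and 30.9 CPM. TAZG197V heart 4 had 2.28 times the mean of the other mutant hearts, and the fitted change was -2.91 ± 0.12. Ces1d lies in a cluster of similar carboxylesterase genes, of which Ces1e reached 0.831 ± 0.444 CPM in WT hearts, so reads could have been split among them. Pla2g5 encodes a secreted phospholipase A2, which releases fatty acids from phospholipids (chr4:138799244-138863482, minus strand). It stood at 38.6, 33.4, 40.9 and 69.5 CPM in WT and 4.84, 4.93, 7.60 and 14.0 CPM in TAZG197V hearts, a change of -2.72 ± 0.15, and heart 4 was again the highest of each genotype. Among 7 other phospholipase A2 genes tested, Pla2g4e (-0.99 ± 0.18, adjusted p = 0.0036) and Pla2g15 (-0.38 ± 0.11, adjusted p = 0.0239) were called lower, the latter with overlapping groups and the call lost in 4 of 15 alternatives. Pla2g12a was called higher (0.79 ± 0.10, adjusted p = 5.3e-04), and the rest were not called.

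Hnmt encodes histamine N-methyltransferase, which inactivates histamine inside cells. Its level was 11.0, 12.0, 12.6 and 15.1 CPM in WT hearts. The TAZG197V hearts gave 1.36, 1.71, 2.04 and 3.01 CPM, with heart 4 highest, and the change was -2.75 ± 0.15. Hdc, which makes histamine, was not called (-0.09 ± 0.27, adjusted p = 0.805), and the receptor genes Hrh1 (-0.58 ± 0.38, adjusted p = 0.254) and Hrh2 (-0.90 ± 0.29, adjusted p = 0.038, below the count minimum) were not called. Slc36a2 encodes a proton-coupled transporter of small amino acids and measured 32.9, 25.8, 26.5 and 24.8 CPM in WT and 8.47, 5.90, 6.55 and 6.06 CPM in TAZG197V hearts (-2.11 ± 0.15). Its relatives Slc36a1 (0.16 ± 0.08, not called, adjusted p = 0.161) and Slc36a4 (0.32 ± 0.10, called higher, adjusted p = 0.0383, lost in 6 of 15 alternatives) were not called lower. Cubn, the endocytic receptor cubilin, had the lowest mean WT level of the set, with 3.47 to 4.82 CPM in WT and 0.640 to 1.17 CPM in TAZG197V hearts (-2.46 ± 0.22), and 2.46% of its exon bases are shared with an antisense gene. Tcaim, which encodes a mitochondrial protein, had the smallest fold, 64.2 to 76.2 CPM in WT and 29.3 to 30.99 CPM in TAZG197V hearts, and among the tightest mutant values, with a coefficient of variation of 2.33%.

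Of the 20 tested lipid and small molecule enzymes outside the set, 14 were called lower and 2 higher, with a median log2 fold change of -1.03. The largest of these changes was an increase, Maoa, a monoamine oxidase, at 3.43 ± 0.19 (adjusted p = 9.5e-06). Acot2, a mitochondrial thioesterase, was also called higher (1.87 ± 0.09, adjusted p = 3.6e-06). Acsm5, an acyl-CoA synthetase of mitochondria, was called lower (-1.91 ± 0.17, adjusted p = 1.0e-04), as was Ogdhl, a relative of oxoglutarate dehydrogenase (-1.56 ± 0.11, adjusted p = 3.4e-05). Over all 9 lists, 85 of 163 tested genes outside the set were called lower and 13 higher, beside 15.1% and 18.5% of all genes, with the same limit on what the count shows.

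Muscle-specific genes of the set were Ky and Smco1, besides Rpl3l. Ky encodes a muscle protein that binds filamin C and whose loss gives a curved spine and myopathy in mice. WT hearts held 25.3, 23.4, 14.4 and 20.99 CPM and TAZG197V hearts 6.35, 7.08, 6.15 and 5.65 CPM (-1.77 ± 0.17), and WT heart 3 came closest to the mutant hearts. Flnc, which encodes filamin C, was called higher at 1.04 ± 0.12 (adjusted p = 3.2e-04), from 389.9 ± 55.5 to 845 ± 99.0 CPM without overlap. Smco1, a membrane protein with a coiled coil, measured 15.6, 15.0, 15.1 and 18.8 CPM in WT and 4.36, 5.23, 4.44 and 6.70 CPM in TAZG197V hearts (-1.73 ± 0.09). Heart 4 gave the highest Smco1 value in each genotype. Of 25 tested genes of striated muscle structure and maintenance outside the set, 15 were called lower and 1 higher, with Myot, a Z-disc protein (-2.25 ± 0.34, adjusted p = 0.00144), and Klhl40, a stabilizer of thin filament proteins (-1.45 ± 0.10, adjusted p = 3.3e-05), the most changed. A list of 5 genes taken as skeletal muscle markers held Ckm, Acta1, Tnnt3, Mylpf and Myh4. Their summed level was not lower in the mutant hearts, at 2066 to 2765 CPM against 1265 to 2028 CPM in WT. Only 1 of the 5 had every TAZG197V heart above every WT heart. The sum does not separate skeletal from heart muscle expression.

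Lama5 encodes the alpha 5 chain of laminin, a basement membrane protein, and was among the most abundant genes of the set (chr2:180176373-180225859, minus strand). It was 214, 173, 154 and 178 CPM in WT and 66.3, 61.6, 74.7 and 70.7 CPM in TAZG197V hearts, a change of -1.46 ± 0.12. WT heart 1 was the highest and the mutant hearts lay within 61.6 to 74.7 CPM. The fitted changes of the laminin chains named next were smaller, though the difference from Lama5 was not tested. Lama2 (-0.41 ± 0.09), Lama3 (-0.62 ± 0.14), Lama4 (-0.35 ± 0.07) and Lamb2 (-0.40 ± 0.06) were called lower with adjusted p of 0.00663, 0.0091, 0.00488 and 0.00144. Lamb1, Lamb3, Lamc1 and Lamc3 were not called. Per kilobase of exon, Lama5 stood at 15.8 CPM in WT hearts, above Lama2 at 9.95 and Lama4 at 7.95, and at 6.00 CPM in TAZG197V hearts, below Lama2 at 7.81 and Lama4 at 6.32.

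Itgb6 encodes the integrin beta 6 subunit, which pairs with the alpha v subunit and activates latent TGF-beta. Its level was 23.5, 22.2, 21.8 and 24.1 CPM in WT hearts, with a coefficient of variation of 4.67%, the smallest among WT hearts in the set, and 8.51, 7.16, 10.5 and 7.94 CPM in TAZG197V hearts (-1.51 ± 0.12). The partner Itgav was not called (-0.05 ± 0.06, adjusted p = 0.545) and Itgb5 was called higher (0.32 ± 0.05, adjusted p = 0.0021). Itgb3 was called lower (-1.91 ± 0.36, adjusted p = 0.0042). Its WT value came largely from heart 4, with 5.21, 4.23, 5.83 and 31.9 CPM in WT hearts, the same heart in which 4 platelet genes summed to 203.9 CPM against 15.4 to 36.1 CPM, and the call was lost with the lane or the replicate number as covariate. Sned1, a matrix glycoprotein, measured 16.6 to 25.7 CPM in WT and 5.26 to 6.82 CPM in TAZG197V hearts (-1.98 ± 0.15). Of its exon bases 19.6% are shared, nearly all with Mterf4 on the other strand, which was not called (0.12 ± 0.07, adjusted p = 0.205).

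Lrrc15 encodes a leucine-rich repeat membrane protein known from activated fibroblasts (ENSMUSG00000052316, chr16:30269302-30283256, minus strand). WT hearts gave 47.7, 41.7, 34.4 and 27.2 CPM and TAZG197V hearts 5.80, 5.23, 2.89 and 2.90 CPM, a change of -3.20 ± 0.22. All mutant hearts were far below the lowest WT heart, number 4. The sum of 4 fibroblast markers was 923 to 1549 CPM in WT and 650 to 956 CPM in TAZG197V hearts, with overlap. Cpn2, a secreted carboxypeptidase subunit whose gene lies 1803 bases from Lrrc15 on the same strand, was likewise called lower at -2.96 ± 0.28 (adjusted p = 1.5e-04). It was 5.31, 4.34, 4.04 and 2.65 CPM in WT and 0.770, 0.578, 0.329 and 0.452 CPM in TAZG197V hearts, and it did not enter the set because its lowest WT level was below 3 CPM. Lingo3, a neuronal-type membrane protein with leucine-rich repeats and an immunoglobulin domain, stood at 17.4, 12.5, 16.8 and 18.4 CPM in WT and 3.67, 3.28, 4.41 and 3.20 CPM in TAZG197V hearts (-2.29 ± 0.11). Of the hearts with brain genes, WT heart 4 had the highest WT value of Lingo3 and TAZG197V heart 4 the lowest mutant value. Igsf1, an immunoglobulin-type membrane glycoprotein known from the pituitary, gave 25.2 to 39.9 CPM in WT and 7.67 to 11.2 CPM in TAZG197V hearts (-1.82 ± 0.14).

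Secreted ligands and their receptors were represented by Apln, Scube2, Clu, Crhr2 and Plxnb1. Apln encodes apelin, a peptide that acts on vessels and on the force of the heart (chrX:48025146-48034853, minus strand). It was 20.3, 18.6, 18.8 and 13.1 CPM in WT hearts and 3.08, 6.31, 5.66 and 4.07 CPM in TAZG197V hearts, with a change of -1.93 ± 0.19. Its receptor Aplnr was called lower at -0.35 ± 0.11 (adjusted p = 0.043), with overlapping groups and the call lost in 8 of 15 alternatives. Scube2, a secreted protein that helps release Hedgehog, measured 16.7 to 24.8 CPM in WT and 5.99 to 8.03 CPM in TAZG197V hearts (-1.65 ± 0.10). Ptch1, the Hedgehog receptor and a transcriptional target of the pathway, was called lower at -0.24 ± 0.06 (adjusted p = 0.0129) with overlapping groups and lost the call in 4 of 15 alternatives. Among 18 growth factor ligands outside the set, 11 were called lower and 7 were not called, with Ccbe1 (-2.04 ± 0.13, adjusted p = 2.2e-05) and Angpt1, an angiopoietin (-1.78 ± 0.18, adjusted p = 2.1e-04), the most changed.

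Clu encodes clusterin, a secreted chaperone that also restrains complement, and was the most abundant gene of the set (ENSMUSG00000022037, chr14:65968483-65981547, plus strand). WT hearts held 482, 540.5, 572 and 374 CPM and TAZG197V hearts 183, 139.5, 112 and 178 CPM (-1.71 ± 0.18). WT heart 4 was the lowest of its group and the mutant hearts spread over 112 to 183 CPM. Per kilobase of exon it stood at 143 CPM in WT and 44.6 CPM in TAZG197V hearts, the highest of the 43 genes in both, with Rpl3l next in WT. Of 16 tested complement and acute phase genes outside the set, 11 were called lower and 5 were not called, with a median log2 fold change of -0.81. C3, the central complement component, was called lower at -1.49 ± 0.18 (adjusted p = 4.5e-04). Hp, haptoglobin, was called lower at -3.37 ± 0.68 (adjusted p = 0.00551), but its groups overlapped and the call was lost without WT heart 2 or 4. Adipocyte genes summed to 40.6 CPM in WT heart 2, against 0.482 to 5.34 CPM in the other WT hearts. Neutrophil genes summed to 57.5 CPM in WT heart 4, against 1.48 to 3.23 CPM. The part of those cells in the Hp level was not tested.

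Crhr2 encodes the receptor for the urocortins, which strengthen the beat of the heart (chr6:55090049-55133016, minus strand). Its levels were 36.3, 32.8, 33.1 and 31.9 CPM in WT and 14.9, 11.3, 11.6 and 13.6 CPM in TAZG197V hearts (-1.45 ± 0.11), even within WT with a coefficient of variation of 5.69%. The ligand genes were near the limit of detection. Ucn was not called (0.08 ± 0.33, adjusted p = 0.863), and no WT library held more than 4 counts of Crh, 2 counts of Ucn2 or any of Ucn3. Beside Crhr2, 14 of 22 tested receptors and partners of the G protein-coupled class were called lower and 2 higher. Gpr22, an orphan receptor of heart and brain (-1.59 ± 0.20, adjusted p = 5.8e-04), and the alpha 1 adrenergic receptor Adra1a (-1.54 ± 0.18, adjusted p = 4.6e-04) were the most lowered. Ednra, an endothelin receptor, was called higher (1.23 ± 0.07, adjusted p = 1.3e-05).

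Plxnb1 encodes the plexin that receives semaphorin 4D, a guidance cue of axons and vessels. It was 69.3, 58.0, 61.5 and 58.2 CPM in WT and 25.5, 20.3, 24.5 and 21.05 CPM in TAZG197V hearts (-1.51 ± 0.10). Its ligand gene Sema4d was called lower at -0.64 ± 0.11 (adjusted p = 0.00215). Plxnb3 was called lower at -1.59 ± 0.14 (adjusted p = 1.2e-04) and lay just outside the threshold of the set, while Plxnb2 was not called (0.13 ± 0.07, adjusted p = 0.208). Of 33 axon guidance genes outside the set, 13 were called lower and 2 higher, with Efnb3, an ephrin (-1.88 ± 0.15, adjusted p = 6.5e-05), the most lowered. Arhgef19, an exchange factor that activates RhoA, measured 41.6 to 58.8 CPM in WT and 14.5 to 18.5 CPM in TAZG197V hearts (-1.75 ± 0.09). Rhbdl3, of the rhomboid protease family, gave 13.9 to 19.6 and 3.64 to 5.91 CPM (-1.95 ± 0.10). Hist2h2be, a histone H2B gene whose close copies make its count uncertain, gave 11.7 to 14.2 and 3.91 to 5.10 CPM (-1.58 ± 0.11). A last list, of WNK kinases and cation chloride cotransporters, holds no gene of the set, and 3 of its 9 tested genes were called lower and 1 higher, led by Wnk2 (-1.64 ± 0.10, adjusted p = 1.5e-05). A530016L24Rik and Gm826 are protein-coding genes without a functional name. A530016L24Rik stood at 44.8, 34.3, 40.6 and 56.1 CPM in WT and 8.51, 11.6, 12.3 and 13.4 CPM in TAZG197V hearts (-2.05 ± 0.12), and Gm826 at 4.85 to 7.46 and 1.36 to 2.14 CPM (-1.94 ± 0.14).

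The 11 genes not annotated as protein-coding were 5 antisense RNAs, 4 long intergenic RNAs, 1 RNA from a bidirectional promoter and 1 transcribed pseudogene. Gm10635, intergenic, had 7.48, 7.24, 3.60 and 8.72 CPM in WT hearts and 0.734, 0.551, 0.428 and 0.715 CPM in TAZG197V hearts (chr9:79444037-79519302, minus strand). Its fitted change of -3.50 ± 0.28 was the largest of the genes not annotated as protein-coding, and WT heart 3 was well below the other WT hearts. Gm31663, the pseudogene, gave 8.45, 5.17, 5.49 and 8.50 CPM and 1.32, 0.744, 0.921 and 1.69 CPM (-2.703 ± 0.23). The neighbouring RNA Gm26862, 469 bases away on the same strand, was called lower at -2.97 ± 0.27 (adjusted p = 1.1e-04). The intergenic RNAs Gm31013 (-1.88 ± 0.13), AC141882.2 (-1.59 ± 0.17) and Prr33 (-1.61 ± 0.11), the last typed as non-coding in GENCODE M21 despite its protein-style name, lay at 7.46 to 10.2, 4.56 to 5.34 and 14.4 to 17.1 CPM in WT hearts, with TAZG197V means of 2.46 ± 0.178, 1.68 ± 0.413 and 5.62 ± 0.676 CPM (SD, n = 4). Lsp1, which overlaps Prr33 on the other strand, was called lower at -0.73 ± 0.19 (adjusted p = 0.0158), a call lost without TAZG197V heart 2.

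The antisense RNAs can be set beside the genes they overlap, which were screened by the same rule and did not enter the set. Gm15543 was the most abundant of them, at 30.9, 25.4, 40.6 and 38.3 CPM in WT and 6.90, 6.58, 8.52 and 9.15 CPM in TAZG197V hearts (-2.24 ± 0.12). Casc1, on the other strand, was called lower at -1.61 ± 0.14 (adjusted p = 9.0e-05). It lay just outside the threshold of the set, with a ratio of 1.95. 4631405J19Rik (8.41 to 11.5 and 1.73 to 3.01 CPM, -1.98 ± 0.12) overlaps Prdm11, which was called lower at -0.89 ± 0.14 (adjusted p = 0.00143). Gm19461 (8.40 to 10.3 and 1.76 to 3.39 CPM, -2.20 ± 0.16) overlaps Plekha6, which was called lower at -0.65 ± 0.14 (adjusted p = 0.00749). D830039M14Rik (5.48 to 6.34 and 1.69 to 2.41 CPM, -1.62 ± 0.15) overlaps Lrrc20, which was called lower at -0.33 ± 0.06 (adjusted p = 0.00376). D830024N08Rik (17.3 to 21.5 and 7.76 to 8.07 CPM, -1.36 ± 0.09) overlaps Tecr, which was not called (0.10 ± 0.09, adjusted p = 0.448). Gm16793 (8.37 to 10.6 and 2.75 to 4.01 CPM, -1.55 ± 0.10) overlaps Mfhas1 on the other strand, which was called lower at -0.35 ± 0.07 (adjusted p = 0.00699), a call lost without TAZG197V heart 4. In these 6 cases the fitted change of the overlapped gene was smaller than that of the RNA of the set, a difference that was not tested and that the choice of the set favours. Whether the counting used strand was not stated, so where exons overlap the partners cannot be told apart, which concerns 18.1% of the exon bases of Gm19461, 17.8% of D830024N08Rik (shared with Gm45823, not with Tecr), 8.04% of Gm16793 and 2.65% of D830039M14Rik.

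The genes lie on 16 chromosomes, with most on chromosome 9 (7 genes) and chromosome 2 (6 genes), and 0 pairs lie within 100 kb of each other. Around them, 160 genes within 100 kb were tested, of which 31 were called lower and 28 higher, beside the 15.1% and 18.5% of all genes. Crhr2, for instance, lies 10549 bases from Gars, a glycyl-tRNA synthetase that was called higher at 2.76 ± 0.08 (adjusted p = 3.8e-07). Scn4a lies 41362 bases from Ern1, a sensor of the unfolded protein response that was called higher at 1.80 ± 0.12 (adjusted p = 2.5e-05).

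Promoter sequence was read from RefSeq on GRCm38.p6 for the 31 of the 43 genes with a record there, taking the 250 bases before the most upstream start. The median GC content was 56.8%, from 38.8% to 75.2%, against 60.4% over 8383 genes with a lowest WT level of at least 3 CPM. Motifs of 8 kinds were searched on both strands. The TATA box was TATAAA, and the letters searched for GATA factors were AGATAAG. For TEAD factors the search used CATTCC, and the E-box was CACGTG, which reads the same on both strands. Oestrogen-related receptors were searched with TCAAGGTCA, and ATF4 was searched as TGATGNAA, while MEF2 and serum response factor were searched with consensus patterns that are given here by name alone. A TATA box and an MEF2 match overlap in Gm826. None of them occurred in more than 3 of the 31 promoters. The TATA box was in 2 (6.45%, against 6.17% of the 8383), the TEAD motif in 3 (9.68% against 10.5%), the E-box in 2 (6.45% against 8.76%), and the GATA and MEF2 motifs in 1 each (3.23% against 1.44% and 0.549%). The remaining 3 motifs had 0 matches in the 31 promoters and were in 0.191% to 1.91% of the 8383. Shares over all 27025 promoters in the table were 13.0% for the TATA box, 12.6% for TEAD, 6.04% for the E-box, 2.76% for GATA and 0.522% for MEF2, and from 0.366% to 3.53% for the 3 without a match. A match is a description of letters and not a site in use. The 4 promoters printed here belong to genes of different roles that hold a match, the motif being in capitals and the last base lying next to the start. They are Crhr2 (chr6:55133017-55133266, minus strand) with a TATA box, Mlxipl (chr5:135089640-135089889, plus strand) and Lingo3 (chr10:80844040-80844289, minus strand) with an E-box, and Rpl3l (chr17:24727576-24727825, plus strand) with a GATA motif on the other strand.
Crhr2: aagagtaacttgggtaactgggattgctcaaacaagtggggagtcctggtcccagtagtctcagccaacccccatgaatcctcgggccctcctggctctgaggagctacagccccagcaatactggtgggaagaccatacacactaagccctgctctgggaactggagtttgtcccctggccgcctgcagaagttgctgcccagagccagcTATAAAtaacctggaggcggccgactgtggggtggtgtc
Mlxipl: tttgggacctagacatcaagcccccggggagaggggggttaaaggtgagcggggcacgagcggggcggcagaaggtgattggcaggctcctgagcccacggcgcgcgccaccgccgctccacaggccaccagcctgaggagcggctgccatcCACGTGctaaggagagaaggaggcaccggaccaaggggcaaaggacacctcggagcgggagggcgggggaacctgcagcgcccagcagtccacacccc
Lingo3: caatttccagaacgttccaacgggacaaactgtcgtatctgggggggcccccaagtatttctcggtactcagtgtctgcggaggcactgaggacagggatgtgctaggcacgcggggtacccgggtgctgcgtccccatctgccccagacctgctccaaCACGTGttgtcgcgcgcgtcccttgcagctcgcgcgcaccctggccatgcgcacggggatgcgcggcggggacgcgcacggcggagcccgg
Rpl3l: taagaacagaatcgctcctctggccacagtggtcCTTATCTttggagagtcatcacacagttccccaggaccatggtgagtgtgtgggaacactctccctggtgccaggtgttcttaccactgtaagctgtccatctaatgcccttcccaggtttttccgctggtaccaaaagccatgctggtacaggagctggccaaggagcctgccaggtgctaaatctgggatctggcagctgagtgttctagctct
The E-box of Mlxipl, 98 to 93 bases before the start, and that of Lingo3, 91 to 86 bases before it, were at like distances.

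Within a genotype, the median coefficient of variation of the 43 genes was 15.1% in WT and 17.2% in TAZG197V hearts, beside 9.72% over the 10655 genes in WT. The highest WT value came from heart 1 for 17 genes, heart 2 for 4, heart 3 for 7 and heart 4 for 15. In TAZG197V hearts the highest value came from heart 1 for 13 genes, heart 2 for 5, heart 3 for 7 and heart 4 for 18. For 9 genes heart 4 was highest in both genotypes, among them Hnmt, Ces1d, Gm31663, A530016L24Rik, Phkg1, Gm19461, Pla2g5 and Smco1. These are the hearts with red cell and brain genes (WT 4) and brain genes (TAZG197V 4), and the part of those cells in the values was not tested. WT heart 4 also gave the lowest WT value for 15 genes, among them Clu and Scube2.

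**Figure D4:**
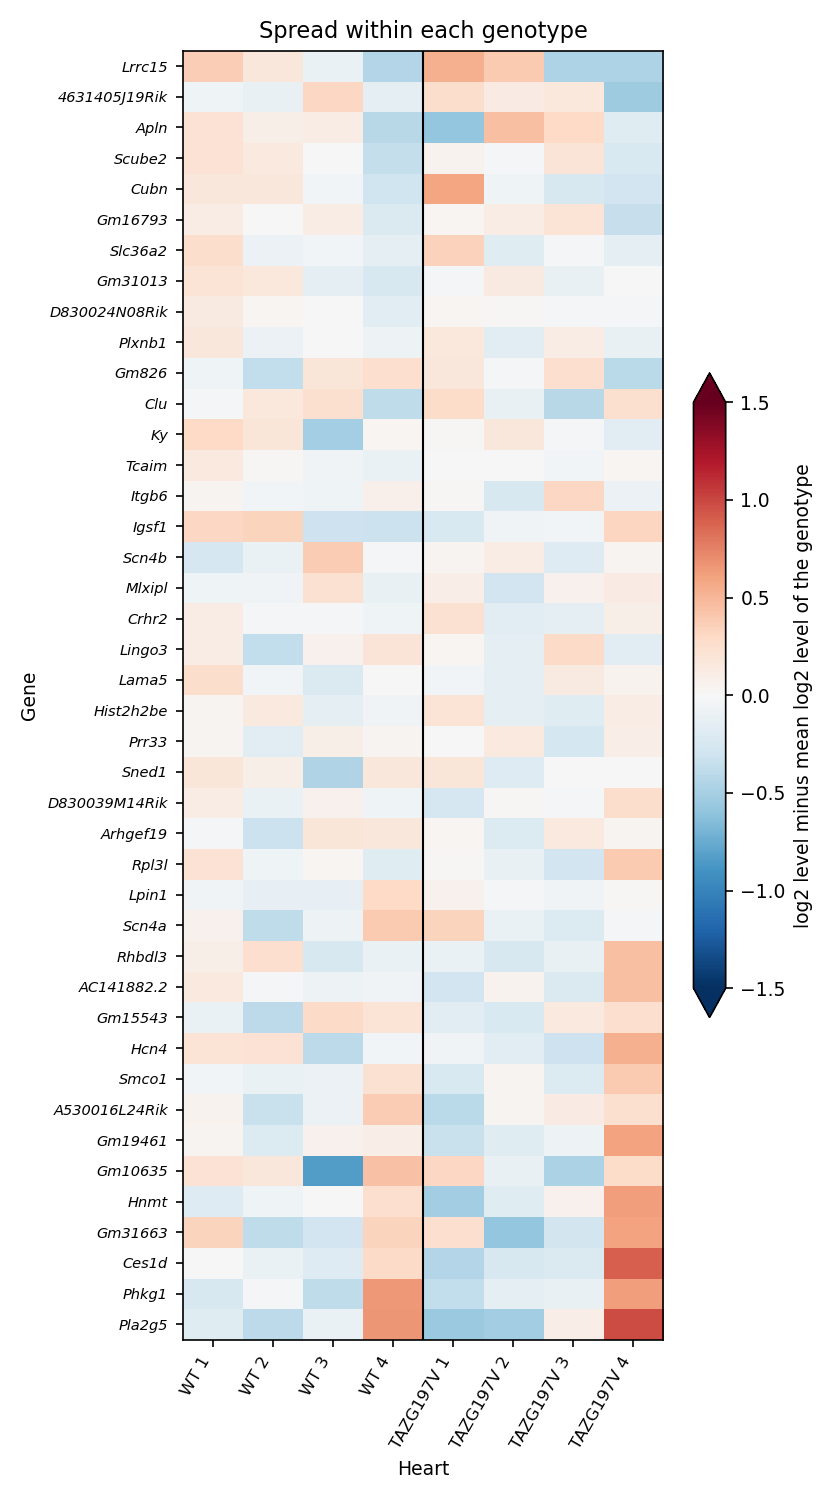
Log2 level of all but 1 of the 43 genes in every heart minus the mean log2 level of its genotype, with red above and blue below the mean and the vertical line between the 4 WT and the 4 TAZG197V hearts. Pla2g5, Phkg1 and Ces1d at the bottom are high in heart 4 of both genotypes, while Lrrc15 and Scube2 at the top are low there.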

How the data were processed

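RNA was measured in heart pieces of 4 WT and 4 TAZG197V mice, grouped by the genotype given in the labels. Per the study's methods and the labels, TruSeq libraries were sequenced single-end, demultiplexed with bcl2fastq 2.20.0, aligned to mm10 with STAR 2.7.3a and counted per gene with featureCounts (Subread 2.0.0). What the authors deposited for each library is a table of raw counts by Ensembl gene. Their annotation release, strand setting and handling of multiple matches are not given in the sources used here. The 92 spike-in rows summed to 0 counts and were left out. Symbols, positions and exon lengths came from GENCODE M21 on GRCm38, which names 55230 of the 55471 genes.

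CPM was a count over the total of gene counts, times 1000000. Differences were fitted in R 4.3.3 with edgeR 4.0.16 (filterByExpr, TMM, quasi-likelihood F-test, two-sided) with 2 surrogate variables from sva 3.50.0, and p-values were adjusted by Benjamini-Hochberg over 15084 genes. A gene was called at an adjusted p under 0.05, a fold change beyond 1.15 and a mean scaled count of at least 50. The standard error was the log2 fold change divided by the square root of F. The code was tested on simulated data. Totals of 23055689 to 36301031 counts keep counting error small for most genes, and the reads carry no molecular identifiers. Each library is taken as 1 mouse, and p-values measure only the spread between these hearts.

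The members, the 9 gene lists and the related genes were chosen with earlier results of these data known. Named are all but 1 of the 43 genes, the genes next to the threshold, up to 4 of the most changed genes per list (not all are printed), and related, overlapping or neighbouring genes. A member and some other genes are counted but not reported here. The related and neighbouring genes outside the lists, with their alternatives, were added after the data were seen. Alternatives covered DESeq2 1.42.0, other scalings, covariates and filters, other limits of the rule, and each library left out.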

Additional observations from a re-analysis of the deposited data

Results flagged for a closer look

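Within each genotype of 4 hearts, a value was singled out when its gap to the nearest other heart took up more of the group's range than Dixon's 95% limit for 4 values. Of 86 groups (43 genes in 2 genotypes), 7 passed, where about 4.3 would by chance at 1 in 20. Ces1d was high in TAZG197V heart 4, with 12.3, 14.1, 14.3 and 30.9 CPM in the mutant hearts and a gap of 0.892 of the range. 4631405J19Rik was high in WT heart 3, at 11.5 CPM against 8.41 to 8.90 CPM (0.845). Sned1 was low in WT heart 3, at 16.6 CPM against 24.2 to 25.7 CPM (0.834). Mlxipl was high in WT heart 3, at 31.1 CPM against 24.7 to 25.6 CPM (0.856), and low in TAZG197V heart 2, at 8.21 CPM against 10.5 to 10.9 CPM (0.831). Smco1 was high in WT heart 4, at 18.8 CPM against 15.0 to 15.6 CPM (0.861). Lpin1 was high in the same heart, at 303 CPM against 226 to 238 CPM (0.847).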

How the results depend on the processing

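The number of genes that met the rule moved with its limits. It was 143 with a ratio of 1.5 in place of 2 and 6 with a ratio of 3, 63 and 32 with a lowest WT level of 1 or 10 CPM, and 49 when mitochondrially encoded genes were left out of the total. Leaving out 1 library gave 47 to 79 genes, the most without TAZG197V replicate 4, and leaving out both number 4 libraries gave 99, because fewer values have to be separated. The median log2 fold change of the 43 genes ran from -1.92 to -1.80 over the alternatives. Over all genes, 1550 to 2387 were called lower and 2125 to 2833 higher. With the replicate block in place of surrogate variables the counts were 1834 and 2438, the median of the set was -1.87, and 79 of the list genes were called lower and 10 higher. Deviations of hearts with the same number correlated at 0.277, 0.0436, 0.28 and 0.416, and of hearts with different numbers at -0.464 to 0.317. The same-number values were all above 0, and that of the number 4 hearts was above every different-number value. The numbers were not taken as a pairing in the main fit, and these values do not settle whether they mark one. List genes called lower ranged from 73 to 88 and higher from 10 to 14, and related genes from 16 to 22 and from 9 to 16. Of 175 called genes outside the set that were named or counted, 123 kept their call in every alternative. Among the called related and list genes, 0 changed direction in an alternative. Changes of direction were not tallied for the other neighbouring genes. Crh, Ucn2 and the Ces1 relatives other than Ces1e were among the related genes with counts too low to be tested.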
